A study of Homo sapiens with 24 samples.

Results

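The comparison set 3 libraries of cells targeted at ZNF711 in the ventricular condition (VM ZNF711) against 3 libraries of control cells targeted at TRAC in the same condition (VM TRAC), 6 of the 24 libraries of the series, chosen by their labels alone. All came from 1 reporter line of HES3 human embryonic stem cells, which carries GFP at NKX2-5 and mCherry at NR2F2. The cells were made with CRISPR-Cas9 and differentiated toward heart muscle as embryoid bodies by Wnt modulation for at most 14 days. VM was read as the ventricular condition, without retinoic acid, and AM as the atrial condition, in which retinoic acid was added at day 4. The labels do not spell out AM and VM, and they do not say how many clones or guides each genotype rests on. TRAC encodes the constant region of the T cell receptor alpha chain, and its targeting serves as the cutting control. The reporter alleles and the Cas9 treatment were common to both groups. Whether replicates came from separate differentiations is not stated, so the p-values measure the spread between these libraries, which may be technical.

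ZNF711 is a zinc finger protein encoded on the X chromosome. It belongs to the ZFX family, binds near gene starts, is known to recruit the histone demethylase PHF8, and is mutated in a form of X-linked intellectual disability. NR2F2 (COUP-TFII) and NR2F1 (COUP-TFI) are nuclear receptors that promote atrial identity in heart muscle cells, while IRX4 and HEY2 are transcription factors of the ventricle. PAX6 is a homeobox factor of the eye and the forebrain, and NELL2 is a secreted protein with EGF-like repeats that guides axons through ROBO3.

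The 6 libraries held 3948958 to 7438010 counts, and 23174 to 25454 genes had a count. Levels are given in CPM, counts divided by a library size that was scaled by the trimmed mean of M values. A floor of 3 counts corresponds to 0.447 to 0.742 CPM, and such floors cover counting error only. Libraries of VM ZNF711 and VM TRAC with the same number were taken as pairs 1, 2 and 3 from the outset, and such libraries varied together. The test took out a shift common to all VM libraries of a number, and it estimated the spread over all 24 libraries. Log2 fold changes are those fitted by edgeR's quasi-likelihood test, and a gene was called at a Benjamini-Hochberg adjusted p below 0.05 over 17724 genes. The labelled cell type, cardiomyocyte, was checked by the sarcomere genes, whose summed level was 16124 to 22288 CPM in VM ZNF711 and 20895 to 49316 CPM in VM TRAC. TNNT2, MYH6 and ACTN2, its defining genes, had at least 117, 3295 and 454 CPM in each library, while the genes of hepatic and yolk sac secretory cells summed to 4917 to 41256 CPM in the same 6 libraries.

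ZNF711 RNA was only slightly lower in the libraries labelled ZNF711 and was not called. Its levels were 32.9, 33.9 and 25.9 CPM in VM ZNF711 and 48.0, 37.5 and 34.6 CPM in VM TRAC, in the order of replicates 1, 2 and 3. All 3 libraries lay below all 3 controls, and the fitted log2 fold change was −0.37 (SE 0.17, edgeR adjusted p = 0.176). In VM ZNF503, another targeted group, the levels were 28.6, 36.2 and 34.2 CPM, so the lower level was not limited to the libraries labelled ZNF711. Frameshift deletions can leave RNA in place, and gene counts do not show the edited sequence. The counts are therefore no check of the label. ZNF711 lies on chrX:85244032-85273362 on the plus strand (GRCh38, GENCODE 29). Its paralog ZFX had 98.0 to 118 CPM against 103 to 127 CPM (log2 fold change −0.13, edgeR adjusted p = 0.524). PHF8 had 67.0 to 106 CPM against 68.1 to 105 CPM, and KDM5C, another X-linked histone demethylase, had 332 to 400 CPM against 335 to 378 CPM. Of the 6 genes of this list, which also holds ZNF503 and LHX2, the other targets of the series, 0 were called. TRAC itself was barely counted in either group, at 0.188 to 0.989 CPM in VM ZNF711 and 0.206 to 1.23 CPM in VM TRAC.

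With the pairs taken into account, 1485 of 17724 genes were called (8.38%). Of these, 846 were higher in VM ZNF711 (4.77% of those tested) and 639 were lower (3.61%), and among these 261 and 152 had a fitted change of 2-fold or more. The pairs did not contribute equally. Among the 846 genes the median log2 ratio was 0.83 in pair 1, 1.0 in pair 2 and 0.24 in pair 3, and among the 639 it was −0.79, −0.88 and −0.31. Pair 3 had the smallest ratio for 728 and 502 of these genes. Without the replicate block the test called 3 genes (0.0169%), PAX6, NELL2 and NR2F2-AS1, while 1666 genes had an unadjusted p under 0.05. A block shared by AM and VM called 402 genes (2.27%). Leaving out pair 2 left 169 calls, leaving out pair 1 left 310, and leaving out pair 3 gave 2487. Rises made up 57% of the calls with all libraries, 55% with the shared block and 59.1% without pair 3. They made up 44.5% without pair 1, 35.5% without pair 2 and 46.3% with the VM libraries alone. Which direction had more calls thus depended on the fit. Apart from PAX6, NELL2 and NR2F2-AS1, every call of this comparison depends on the replicate block. With the 6 libraries alone in the fit and the pairs kept, 191 genes were called, 67 higher and 124 lower. Most calls thus also depend on having the other groups in the fit. CPM of the groups did not overlap for 1796 genes (10.1% of those tested), 959 of them higher (5.41%) and 837 lower (4.72%). Among the called genes the groups did not overlap for 343 of the 846 and 211 of the 639.

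NELL2, NR2F2-AS1 and PAX6 were the genes called with and without the pairs. NELL2 lies on chr12:44508275-44921848, minus strand, NR2F2 on chr15:96325938-96340263, plus strand, its antisense gene NR2F2-AS1 on chr15:96110040-96327361, minus strand, and PAX6 on chr11:31784779-31818062, minus strand (GRCh38, GENCODE 29). NR2F2 and NR2F2-AS1 overlap head to head by 1424 bases of gene body and by 0 exonic bases. Whether the counting used strand is not stated, so intronic or unspliced reads of that stretch cannot be assigned to either gene, whereas annotated exons are distinct. NELL2 had 0 start windows in the RefSeq set used. Some windows of that set (GRCh38.p14, 250 bases before to 50 after an annotated start) are shown for PAX6 and NR2F2-AS1. The core letters of the motif known for the ZFX family, AGGCCT, can be looked for in them. AGGCCT reads the same on both strands. It was found in 3826 of 35116 windows of that length (10.9%). It stood in 2 of 9 windows of PAX6 and in 0 of 2 of NR2F2 and 0 of 2 of NR2F2-AS1, and capitals mark it below. The PAX6 windows shown were picked because they hold it, and the PAX6 windows without it are left out. For NR2F2-AS1 the first listed window is shown. A match is a description of the letters and not a binding site. The NR2F2-AS1 window spans the end of the stretch that both genes share.
PAX6 start window, chr11:31812671-31812970, minus strand, match at base 265: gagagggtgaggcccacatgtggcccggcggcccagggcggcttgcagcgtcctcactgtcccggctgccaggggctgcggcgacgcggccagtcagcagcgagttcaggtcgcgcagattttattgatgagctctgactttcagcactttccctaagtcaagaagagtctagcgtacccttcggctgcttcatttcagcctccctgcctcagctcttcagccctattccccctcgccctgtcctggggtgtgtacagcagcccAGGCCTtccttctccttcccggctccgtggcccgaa
PAX6 start window, chr11:31806876-31807175, minus strand, match at base 286: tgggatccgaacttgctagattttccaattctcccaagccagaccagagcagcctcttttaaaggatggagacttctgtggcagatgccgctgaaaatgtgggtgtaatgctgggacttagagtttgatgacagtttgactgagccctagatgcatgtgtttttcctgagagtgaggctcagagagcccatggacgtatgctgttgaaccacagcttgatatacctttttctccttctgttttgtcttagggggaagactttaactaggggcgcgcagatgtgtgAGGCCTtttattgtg
NR2F2-AS1 start window, chr15:96327069-96327368, minus strand, no match: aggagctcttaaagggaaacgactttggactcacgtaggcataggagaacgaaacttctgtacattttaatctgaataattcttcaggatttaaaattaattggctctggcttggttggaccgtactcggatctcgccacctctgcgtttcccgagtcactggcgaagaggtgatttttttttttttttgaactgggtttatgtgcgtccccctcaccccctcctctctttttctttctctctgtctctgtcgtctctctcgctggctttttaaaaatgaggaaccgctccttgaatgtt

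NELL2 was near the floor in control cells and well above it in every VM ZNF711 library. Its levels were 15.1, 12.8 and 9.40 CPM against 1.23, 1.03 and 1.04 CPM in VM TRAC, with means of 12.4 ± 2.86 and 1.10 ± 0.112 CPM (SD, n = 3 each). The groups were far apart, and the ratios of the pairs were alike, at 3.25, 3.20 and 2.76 on the log2 scale. The fitted log2 fold change was 3.46 (SE 0.33, edgeR adjusted p = 2.71e-09), and it stayed between 3.27 and 3.81 with any library or pair left out. VM LHX2 had 0.940 to 1.80 CPM and VM ZNF503 0.613 to 1.93 CPM. The level in VM ZNF711 remained below that of the AM libraries, where NELL2 was at 27.8, 39.3 and 29.1 CPM in AM ZNF711 and 27.8, 37.9 and 34.1 CPM in AM TRAC. In AM the fitted log2 fold change was −0.06 (SE 0.21, edgeR adjusted p = 0.966). The difference between the VM and the AM effect was 3.52 (SE 0.40, edgeR adjusted p = 4.70e-07), and it was also called without the replicate block (edgeR adjusted p = 0.000104). Of the other 8 genes of the NELL and SLIT-ROBO list, which holds the guidance ligands and their receptors, 0 were called.

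NR2F2 and its antisense gene were higher in the same libraries. NR2F2 had 78.1, 76.4 and 85.9 CPM in VM ZNF711 against 18.9, 22.7 and 49.2 CPM in VM TRAC. The VM ZNF711 libraries were close to each other, while replicate 3 of the control was well above the other 2 controls. The log2 fold change was 1.49 (SE 0.15, edgeR adjusted p = 1.29e-06), with pair ratios of 2.03, 1.73 and 0.80, and the adjusted p without the block was 0.0999 by edgeR. NR2F2-AS1 had 9.15, 4.89 and 4.81 CPM against 2.46, 0.825 and 0.745 CPM. Its groups did not overlap, the pair ratios were 1.74, 2.11 and 2.18, and the log2 fold change was 2.25 (SE 0.34, edgeR adjusted p = 3.20e-05). It was not called with the 6 libraries alone in the fit (edgeR adjusted p = 0.0538), and its range over the fits with libraries left out was 2.0 to 2.71. AM libraries were far above, with 383 to 474 CPM of NR2F2 in AM ZNF711 and 411 to 514 CPM in AM TRAC, and 46.3 to 58.7 against 55.5 to 65.6 CPM of NR2F2-AS1. In VM ZNF711 both genes stood between the VM controls and AM. NR2F1, the other COUP-TF, had 13.1, 19.2 and 8.99 CPM against 0.205, 0 and 4.32 CPM. Its groups did not overlap either, and its log2 fold change was 3.12 (SE 0.80, edgeR adjusted p = 0.0317), a call lost in 11 of 18 alternatives.

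PAX6 had 0 counts in control replicates 1 and 2 and was counted in all VM ZNF711 libraries. Its levels were 19.5, 13.7 and 5.43 CPM against 0, 0 and 1.79 CPM. VM LHX2 had 0.752, 0.850 and 2.40 CPM and VM ZNF503 1.17, 0.613 and 1.29 CPM, so 9 VM libraries without the ZNF711 label lay at or below 2.40 CPM. The fitted log2 fold change was 4.33 (SE 0.67, edgeR adjusted p = 0.000133). That size depends on how the zeros are handled: with a prior count of 2 the ratios of the pairs were 5.64, 5.14 and 1.41, and the fitted value was 3.41 without pair 1 and 9.35 without pair 3. With the 6 libraries alone in the fit PAX6 was not called (edgeR adjusted p = 0.275). In AM, PAX6 was at 6.64 to 7.81 CPM in AM ZNF711 and 3.12 to 10.4 CPM in AM TRAC.

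**Figure D1:**
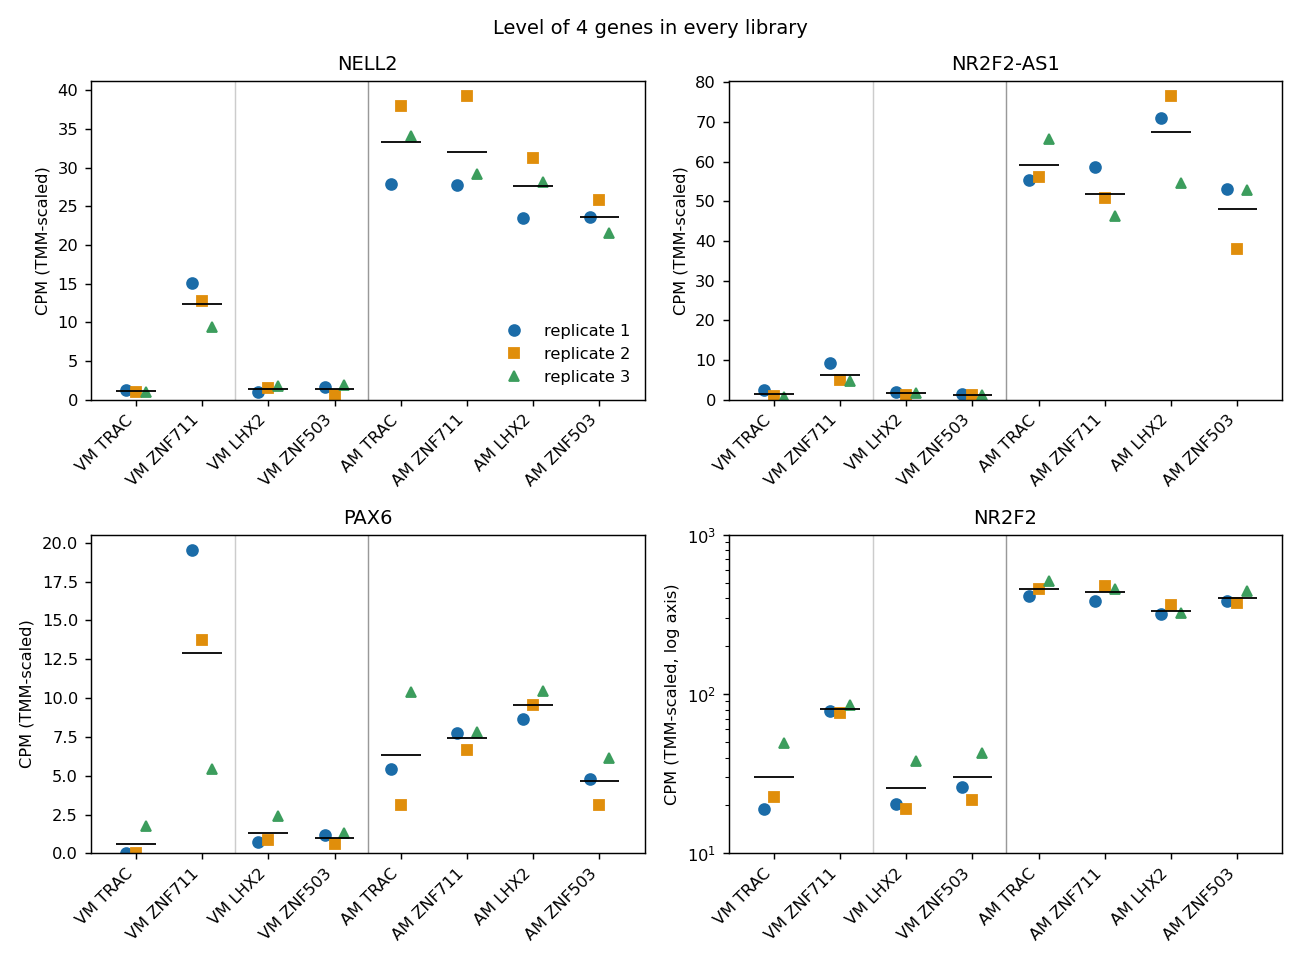
Level of NELL2, NR2F2-AS1, PAX6 and NR2F2 in CPM (y axis, logarithmic for NR2F2) in each of the 24 libraries, by group (x axis). Points are libraries, their shape gives the replicate number and bars are group means; the VM ZNF711 libraries lie above all other VM libraries for each gene and, for NELL2, NR2F2-AS1 and NR2F2, below all AM libraries.

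The called genes with the largest fitted rise, among those counted at least 50 times in each VM ZNF711 library, with no overlap of the groups and the same sign in each pair, included SFRP2, TFAP2B, SCUBE1, SOX10, ZIC2, OTX1, ZFHX4, IRS4, TTYH1, TP63 and SULF1. SFRP2, a secreted modulator of Wnt signals, had 41.3, 37.1 and 18.6 CPM in VM ZNF711 against 0, 1.44 and 3.87 CPM in VM TRAC (log2 fold change 5.13, SE 1.18, edgeR adjusted p = 0.0178). TFAP2B, an AP-2 transcription factor of the neural crest, had 26.5, 28.6 and 11.3 CPM against 1.03, 0.619 and 7.75 CPM. SOX10, a transcription factor of the neural crest and of glia, had 18.1, 32.2 and 14.4 CPM against 1.03, 3.30 and 9.83 CPM. In each of these genes replicate 3 was the lowest VM ZNF711 library and the highest control, so the groups came closest there. OTX1, a forebrain homeobox factor, had 56.1, 32.4 and 32.4 CPM against 6.36, 4.13 and 18.5 CPM. ZIC2, a zinc finger factor of the forebrain, had 22.3, 16.7 and 12.1 CPM against 0.821, 2.68 and 9.24 CPM. TP63, a p53 family factor of epithelia, had the most even levels of these genes, at 13.6, 13.4 and 13.2 CPM against 0.821, 3.71 and 5.22 CPM (log2 fold change 2.13, SE 0.35, edgeR adjusted p = 9.71e-05). SCUBE1, a secreted protein with CUB and EGF-like domains, rose from a mean of 6.72 ± 5.57 to 38.9 ± 9.81 CPM, and SULF1, an extracellular sulfatase that trims heparan sulfate, from 28.5 ± 17.7 to 93.1 ± 25.5 CPM (SD, n = 3 each). ZFHX4, a zinc finger homeobox gene, IRS4, an adaptor of insulin signals, and TTYH1, a neural membrane protein, had log2 fold changes of 2.33, 2.30 and 2.20. In pair 3 the log2 ratio of these genes ran from 0.09 for TTYH1 to 2.15 for SFRP2. Of 18 alternatives, the call was lost in 11 for ZFHX4 and in 10 for SFRP2, SCUBE1 and SULF1. It was lost in 9 for TFAP2B and IRS4, 8 for TTYH1, 7 for ZIC2, 6 for SOX10, 3 for OTX1 and 1 for TP63.

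The 12 genes with the largest fitted fall under the same rule were EXTL1, TENM1, FBXO40, NRG2, PTPRE, FAM13C, ROGDI, ITGB3, C10orf71, ITGB1BP2, NIPAL2 and CARMN. EXTL1, a glycosyltransferase of the exostosin family, had 2.97, 3.20 and 3.34 CPM in VM ZNF711 against 12.3, 11.8 and 11.5 CPM in VM TRAC. Both groups were tight and the pairs gave nearly the same log2 ratio, −1.92, −1.76 and −1.67 (fitted −1.92, SE 0.37, edgeR adjusted p = 0.00064). The call was lost without the block (edgeR adjusted p = 0.164). FBXO40, an F-box protein of striated muscle, had 9.15, 9.03 and 6.90 CPM against 27.5, 46.8 and 10.3 CPM. ITGB1BP2 (melusin), a muscle protein that binds integrins, had 12.4, 11.9 and 11.7 CPM against 29.95, 40.02 and 15.9 CPM. For these muscle genes the control of pair 3 was the lowest control. TENM1, a teneurin adhesion receptor encoded on the X chromosome, had 5.44, 2.63 and 3.55 CPM against 13.5, 15.1 and 8.34 CPM. It was the gene of the 12 that was also called in AM, where it had 10.9 to 12.1 CPM in AM ZNF711 and 16.0 to 40.3 CPM in AM TRAC (log2 fold change −1.38, edgeR adjusted p = 0.0255). PTPRE, a receptor tyrosine phosphatase, had 14.6, 10.7 and 11.3 CPM against 33.4, 33.2 and 23.8 CPM. ROGDI had 5.94, 8.09 and 5.64 CPM against 16.6, 16.1 and 14.3 CPM. NRG2, an ERBB receptor ligand, FAM13C, the integrin chain ITGB3, C10orf71 and NIPAL2 had log2 fold changes of −1.47, −1.30, −1.21, −1.18 and −1.11. CARMN, a long noncoding RNA of the cardiac lineage, fell by 1.10 on the log2 scale, with almost the same ratio in each pair (−1.14, −1.03 and −1.04).

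**Figure D2:**
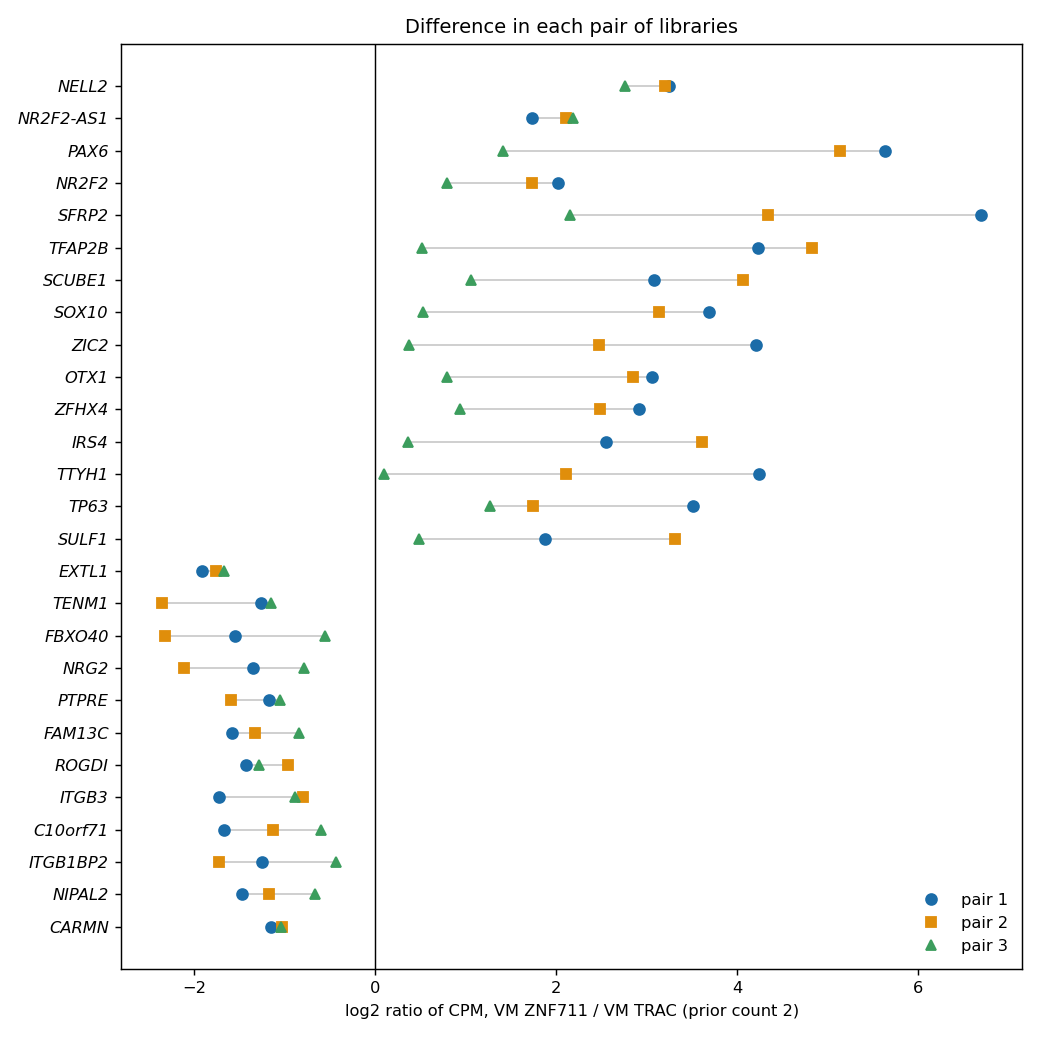
Log2 ratio of CPM, VM ZNF711 over VM TRAC with a prior count of 2 (x axis), within each numbered pair of libraries for the 4 marker genes and the genes of the naming rule described in the text (y axis). Blue circles are pair 1, orange squares pair 2 and green triangles pair 3; among the rises pair 3 lies nearest to 0 in all genes except NR2F2-AS1, while EXTL1 and CARMN have nearly equal ratios in the 3 pairs.

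Many genes of heart muscle fell in VM ZNF711. Counts of list genes here and below are to be read against all tested genes. Of those, 3.61% were called lower and 4.77% higher, and 4.72% and 5.41% had groups without overlap in these directions. Of the 20 sarcomere genes tested, 11 fell and 0 rose, and the median log2 fold change was −0.63, against 0.00 over all tested genes. TTN, the giant spring protein of the sarcomere, had 9247, 7352 and 5571 CPM against 27070, 17142 and 6608 CPM (log2 fold change −1.01, SE 0.22, edgeR adjusted p = 0.0125). TNNT2, cardiac troponin T, had 279, 136 and 117 CPM against 611, 356 and 203 CPM (log2 fold change −1.10, SE 0.11, edgeR adjusted p = 3.37e-08). The groups overlapped for both genes, because the control of pair 3 was low, and every pair was lower. MYBPC3, ACTC1 and LDB3, which encode myosin-binding protein C, cardiac alpha actin and a Z-disc protein, fell by 0.89, 0.66 and 1.08 on the log2 scale. MYH7, the beta myosin heavy chain, had 367 to 552 CPM against 535 to 577 CPM and was not called.

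Of the 10 calcium handling genes, 7 fell and 0 rose, with a median log2 fold change of −0.81. RYR2, the calcium release channel of the sarcoplasmic reticulum, had 478, 453 and 335 CPM against 1342, 1293 and 412 CPM. CACNA1C, the pore of the L-type calcium channel, had 124, 115 and 76.5 CPM against 376, 352 and 108 CPM (log2 fold change −1.27, SE 0.19, edgeR adjusted p = 0.000887). TRDN (triadin) and SLC8A1, the sodium-calcium exchanger, fell by 0.96 and 0.62. For RYR2 and CACNA1C replicates 1 and 2 of the control stood apart from the other 4 libraries.

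Of the 11 core cardiac transcription factors, 8 fell and 0 rose, with a median of −0.49. NKX2-5 had 81.6, 116 and 108 CPM against 123, 255 and 124 CPM, and TBX20 303, 296 and 224 CPM against 595, 733 and 308 CPM. HAND2, MEF2A and GATA4 fell by 0.64, 0.63 and 0.49. Groups did not overlap for NKX2-5, TBX20, HAND2, MEF2A and TBX5. With 1 block shared by AM and VM the calls dropped to 1 of 20 sarcomere genes, 1 of 10 calcium genes and 4 of 11 transcription factors. Without pair 1 they were 3, 4 and 4, and without pair 2 they were 3, 3 and 1.

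Of 10 ventricular genes, 3 fell and 0 rose, against 3.61% and 4.77% of all tested genes, and 8 of the 10 had a fitted value below 0, with a median of −0.47. IRX4 had 39.1, 49.7 and 22.8 CPM against 118, 178 and 46.6 CPM, a log2 fold change of −1.52 (SE 0.17, edgeR adjusted p = 1.05e-07) with ratios of −1.59, −1.84 and −1.02 in the pairs. HEY2 and FHL2 fell by 0.78 and 0.54, and MYL2, the ventricular light chain, was low in all 6 libraries at 0.615 to 4.47 CPM. Of 12 atrial genes, NR2F1 and NR2F2 rose and MYL4, MYH6 and TBX5 fell, with a median of −0.06. MYH6, the alpha myosin heavy chain, had 5133, 4880 and 3295 CPM against 9784, 14082 and 5086 CPM, and MYL4, the atrial light chain, 274, 368 and 289 CPM against 470, 726 and 332 CPM. NPPA, the atrial natriuretic peptide, had 13.8 to 23.2 CPM against 6.77 to 27.4 CPM and was not called. Members that rose are COUP-TF nuclear receptors, and those that fell are myosin chains and a T-box factor that is also on the core list. Without pair 1 or pair 2 the falls dropped to 1 of 10 ventricular genes, and the atrial calls to 1 rise and 1 fall. Of 9 pacemaker genes 4 fell, among them the ion channels HCN4, CACNA1G and CACNA1D, and TBX3, a transcription factor of the conduction system, rose. The call of TBX3 was lost in 11 of 18 alternatives. HCN4 had 170, 241 and 174 CPM against 344, 548 and 229 CPM.

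Of 9 second heart field genes 2 rose, among them TBX1, and OSR1 fell. OSR1, a zinc finger factor of the posterior second heart field, had 0.247, 1.88 and 0.418 CPM against 5.74, 8.66 and 2.53 CPM (log2 fold change −2.65, SE 0.47, edgeR adjusted p = 0.000224). TBX1, a T-box factor of the anterior field, had 20.03, 6.77 and 8.99 CPM against 5.95, 5.36 and 4.32 CPM, with an edgeR adjusted p of 0.0498. Its call was lost in 13 of 18 alternatives, and 0 genes of the list rose under DESeq2 size factors or library size scaling. The call of OSR1 was lost in 1 of 18, the fit without the block. ISL1 had 34.4 to 52.4 CPM against 26.2 to 43.5 CPM and was not called.

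**Figure D3:**
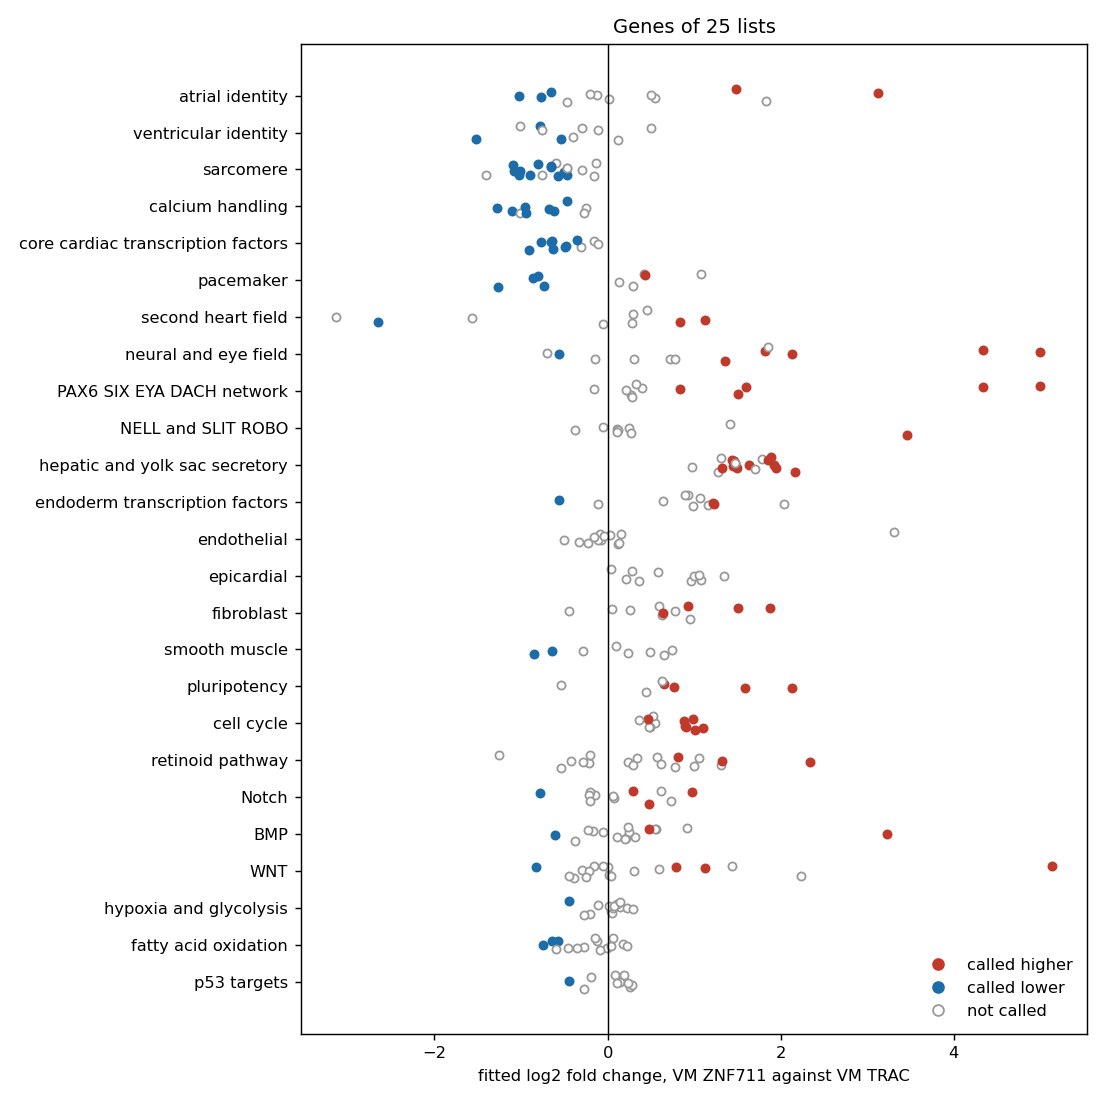
Fitted log2 fold change of VM ZNF711 against VM TRAC (x axis) for each tested gene of 25 lists (y axis, points spread vertically for legibility). Red points were called higher, blue points lower and open points were not called; called sarcomere, calcium and core transcription factor genes lie below 0 and called hepatic, cell cycle and pluripotency genes above 0.

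Cells of other types were looked for with marker lists. Of 18 genes of secretory liver and yolk sac cells, 12 rose and 0 fell, with a median of 1.48. AFP, the fetal serum albumin relative, had 5318, 10547 and 15346 CPM in VM ZNF711 against 2019, 1831 and 14343 CPM in VM TRAC. FGA, a fibrinogen chain, had 443, 830 and 918 CPM against 68.5, 77.1 and 920 CPM (log2 fold change 2.16, SE 0.52, edgeR adjusted p = 0.0225). Both genes were high in all VM ZNF711 libraries and in replicate 3 of the control, and the median log2 ratio of the list was 1.63, 2.66 and −0.01 in pairs 1, 2 and 3. The summed level of the list was 16598, 29362 and 41256 CPM in VM ZNF711 and 5987, 4917 and 39450 CPM in VM TRAC. Replicate 3 was also the highest in VM LHX2 (3631, 2324 and 14218 CPM) and in VM ZNF503 (4819, 4159 and 26644 CPM). Groups overlapped for all 18 genes. Calls were 0 without pair 1, 0 without pair 2, 0 with the VM libraries alone, 2 with the shared block and 18 without pair 3.

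The summed sarcomere level ran the other way across the same libraries. It was 22288, 21232 and 16124 CPM in VM ZNF711 and 49316, 46930 and 20895 CPM in VM TRAC, and it was lowest in replicate 3 of VM LHX2 (27362 CPM) and of VM ZNF503 (24460 CPM). Replicates 1 and 2 of VM ZNF711 lay below every other VM library except replicate 3 of VM TRAC, and replicate 3 of VM ZNF711 lay below all. In bulk RNA, fewer cells of a type and less RNA per cell cannot be told apart. The part of hepatic RNA in the lower CPM of heart muscle genes was not tested. Among the endoderm factors, 2 of 11 tested rose, FOXA2 and CDX2, and PROX1 fell. The median log2 ratio of the list was 1.11, 1.55 and 0.01 in pairs 1, 2 and 3. Calls were 0 without pair 1, without pair 2, with the shared block or with the 6 libraries alone. Without pair 3 there were 6 rises and 1 fall. FOXA2 and CDX2 lost their calls in 10 and 9 of 18 alternatives, and groups overlapped for every gene of the list. FOXA2, a pioneer factor of endoderm, had 13.8, 19.2 and 28.4 CPM against 8.82, 4.33 and 17.7 CPM, and CDX2, a hindgut factor, had 8.66, 12.2 and 33.2 CPM against 1.64, 3.92 and 28.0 CPM.

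**Figure D4:**
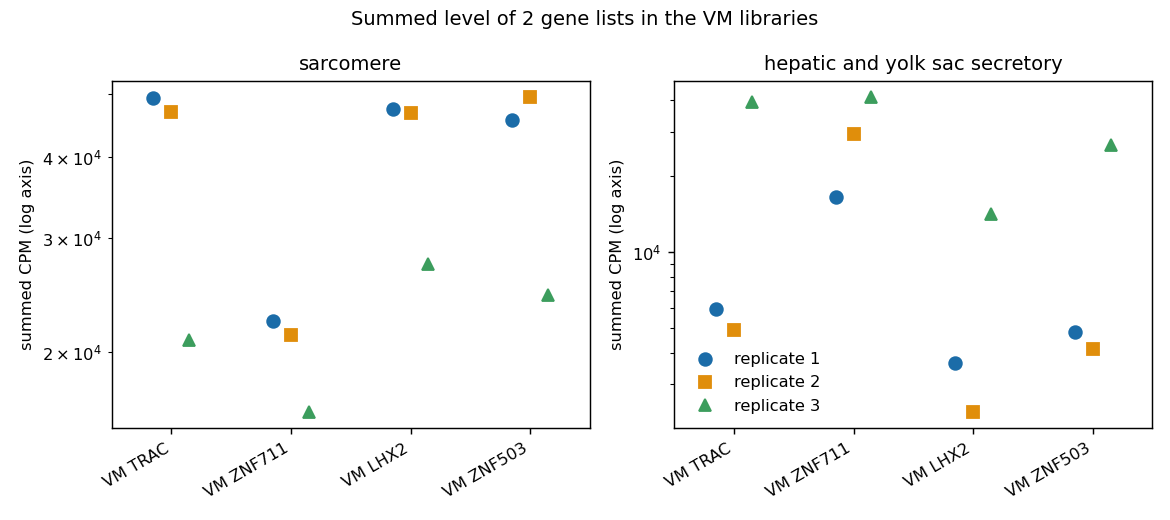
Summed CPM (y axis, logarithmic) of the 20 sarcomere genes and the 18 hepatic and yolk sac secretory genes in the 12 VM libraries, by group (x axis), with the replicate number as shape and colour. Replicate 3 has the least sarcomere and the most hepatic RNA in every group, and replicates 1 and 2 of VM ZNF711 lie on the side of the replicate 3 libraries.

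Of the neural and eye field genes, 12 of 16 were tested, 5 rose and 1 fell, and SOX1, SIX6, RAX and NEUROD1 were too low to test. SIX3, an eye field and forebrain factor, had 3.96, 7.34 and 4.60 CPM against 0, 0 and 0.894 CPM (edgeR adjusted p = 0.00546). Those controls amount to 0, 0 and 6 counts, so no fold is given. SOX2, a factor of neural progenitors and pluripotent cells, had 14.3, 12.6 and 6.06 CPM against 1.85, 1.65 and 4.92 CPM. OTX2, a factor of the forebrain and midbrain, had 59.1, 67.5 and 44.5 CPM against 27.5, 15.1 and 30.2 CPM, and MAP2, a microtubule protein of neurons, 25.2, 24.3 and 19.0 CPM against 3.69, 3.09 and 14.5 CPM. Groups did not overlap for these 4 genes. The median log2 ratio of the list was 1.40, 2.27 and 0.04 in pairs 1, 2 and 3. Rises were 2 without pair 1, 2 without pair 2, 1 with the 6 libraries alone in the fit and 6 without pair 3. OTX2, SOX2, SIX3 and MAP2 lost their calls in 10, 8, 7 and 3 of 18 alternatives. The adhesion molecule NCAM1, which heart muscle precursors also make, fell by 0.56. The summed level of the list did not separate the groups (764 to 894 against 744 to 978 CPM), since NES and NCAM1 make up most of it.

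In the network of PAX6 with the EYA1 and DACH1 families and their partners, transcription factors and cofactors, 5 of 11 tested genes rose and 0 fell. EYA1 had 15.8, 22.9 and 19.9 CPM against 5.33, 5.98 and 9.39 CPM (log2 fold change 1.51, SE 0.26, edgeR adjusted p = 0.000133), and EYA2 17.6, 13.5 and 13.4 CPM against 6.98, 3.51 and 4.62 CPM. These transcriptional coactivators had separate groups and ratios above 1 in every pair, at 1.5, 1.87 and 1.05 for EYA1 and 1.28, 1.84 and 1.46 for EYA2. The summed level of the list was 239, 235 and 238 CPM in VM ZNF711, 171, 159 and 185 CPM in VM TRAC and 174 to 213 CPM in VM LHX2 and VM ZNF503. With the shared block 4 of the 5 were called, without pair 1 3 genes and without pair 2 2 genes.

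Of 12 cell cycle genes, 7 rose and 0 fell, with a median of 0.72, and the groups did not overlap for 8. Over all tested genes 4.77% were called higher and 5.41% were higher without overlap. TOP2A, the mitotic topoisomerase, had 133, 175 and 115 CPM against 71.4, 60.6 and 83.9 CPM, CDK1, the mitotic kinase, 16.8, 26.5 and 21.3 CPM against 7.39, 11.96 and 11.03 CPM, and MKI67, a marker of cycling cells, 217, 190 and 138 CPM against 93.8, 86.8 and 118 CPM. The list summed to 680, 741 and 574 CPM against 354, 372 and 455 CPM, although replicate 3 of VM LHX2 reached 613 CPM. The shared block called 5 of them, and 0 were called without pair 1 and 1 without pair 2. Of 7 pluripotency genes tested, SOX2, LIN28A, DPPA4 and ZFP42 rose. LIN28A, an RNA-binding protein of embryonic cells, had 257, 329 and 255 CPM against 64.4, 72.8 and 190 CPM. POU5F1, the core pluripotency factor, had 4.70 to 9.61 CPM against 3.90 to 7.15 CPM and was not called, and NANOG had at most 0.615 CPM and was not tested. Without pair 1 or pair 2, 0 pluripotency genes were called.

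Among the stromal lists, 4 of 11 fibroblast genes rose: COL3A1, DCN, LUM and DDR2. The median log2 ratio of the list was 1.08, 1.04 and −0.09 in pairs 1, 2 and 3. Calls were 0 without replicate 1 or 2 of either group, 0 without pair 1 or pair 2, and 9 rises without pair 3. DCN (decorin) had 11.1, 10.7 and 7.31 CPM against 1.44, 0.619 and 8.05 CPM, and the summed fibroblast level was 12985 to 16048 CPM against 7341 to 17263 CPM, so replicate 3 of the control was the highest library. Of 8 smooth muscle genes ACTA2 and LMOD1 fell, ACTA2 (smooth muscle actin) from 250, 348 and 330 to 165, 208 and 222 CPM. None of 10 epicardial genes (0 called) and none of 13 endothelial genes (0 called) passed the test, and the medians were 0.77 and −0.07. All 10 epicardial genes had a fitted value above 0, and 3 were called without VM ZNF711 replicate 3, 4 without pair 3 and 3 with no filter on low counts. The epicardial sum was 514 to 733 CPM against 345 to 779 CPM.

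In the signalling lists 3 to 4 genes each were called, to be read against 8.38% of all tested genes. Of 18 retinoid pathway genes 3 rose and 0 fell: CRABP1 and CRABP2, which bind retinoic acid in the cytoplasm, and ALDH1A1, which makes it. CRABP2 had 173, 192 and 182 CPM against 74.1, 113 and 137 CPM without overlap, and CRABP1 13.6, 16.2 and 5.22 CPM against 1.23, 1.44 and 5.66 CPM. CYP26A1, CYP26B1, RARB and the remaining members were not called. In the Notch list NOTCH3, JAG1 and HES1 rose and HEY2 fell, of 12. NOTCH3 had 352, 317 and 334 CPM against 214, 225 and 292 CPM. In the BMP list ID1 and GREM1 rose and BMP5 fell, of 16, and GREM1, a secreted BMP antagonist, had 11.6, 13.0 and 13.0 CPM against 1.23, 0.413 and 3.43 CPM. In the WNT list FZD7, SFRP2 and SFRP5 rose and DKK3 fell, of 18. FZD7, a Wnt receptor, had 65.8, 89.3 and 103 CPM against 39.0, 45.8 and 65.6 CPM (log2 fold change 0.79, SE 0.10, edgeR adjusted p = 2.09e-06), with ratios of 0.75, 0.96 and 0.65 in the pairs. Without pair 1 or pair 2, 0 retinoid and 0 Notch genes were called and 0 BMP genes rose. The shared block called 0 BMP genes, and GREM1 and ID1 lost their calls in 10 and 8 of 18 alternatives. Of 15 fatty acid oxidation genes CPT1A, ACADM and ESRRG fell, against 3.61% lower over all tested genes, and 11 of the 15 had a fitted value below 0. Without pair 1 or pair 2, 0 genes of that list were called. Of 14 hypoxia and glycolysis genes PDK1 fell, and of 10 p53 targets the long noncoding RNA PURPL fell, with 0 rises in these 3 lists.

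The effect of ZNF711 targeting in VM was then set against that in AM, using the difference between the effects as the test. The difference was called for 450 genes (2.54% of those tested), 192 upward (1.08%) and 258 downward (1.46%), and for 1 gene (0.00564%), NELL2, without the replicate block (1135 at an unadjusted p under 0.05). AM ZNF711 against AM TRAC alone gave 94 calls (0.53%), and 0 (0%) without the block, where 618 genes had an unadjusted p under 0.05. The difference was called for 12 of 20 sarcomere genes and 8 of 10 calcium genes, all downward in VM relative to AM. With 1 block shared by AM and VM the difference was called for 5 genes in all. With that block, or without a block, 0 sarcomere genes and 0 calcium genes were called. TNNT2 differed by −1.14 (SE 0.15, edgeR adjusted p = 4.51e-05), since its log2 fold change was −1.10 in VM and 0.05 in AM. For NKX2-5 the values were −0.65 in VM and 0.82 in AM, and for MYH6 they were −1.02 and 0.57. The difference was called for 0 of 18 hepatic genes, and their median log2 fold change in AM was 1.31, with 0 called there. AFP had 406, 397 and 899 CPM in AM ZNF711 against 149, 125 and 472 CPM in AM TRAC (log2 fold change 1.36, SE 0.36, edgeR adjusted p = 0.158). The sarcomere genes had a median of 0.55 in AM. Upward differences were called for NELL2, NR2F2-AS1, PAX6 and NR2F2, and for SCUBE1 (4.19), SOX10 (3.68) and SULF1 (2.69), the 3 largest among genes with at least 50 counts in each VM ZNF711 library. NELL2 and PAX6, with differences of 3.52 and 3.99, did not reach that count in each library. SCUBE1 was at 14.1 to 19.3 CPM in AM ZNF711 and 41.2 to 45.9 CPM in AM TRAC, the opposite order to VM. The largest downward differences among genes with at least 50 counts in each VM TRAC library were in ADGRG2 (−2.44), EXTL1 (−2.26) and TSPAN32 (−2.23). TBX3 was called higher in both conditions, at 0.44 in VM and 0.86 in AM (edgeR adjusted p = 0.0381 and 0.00122).

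**Figure D5:**
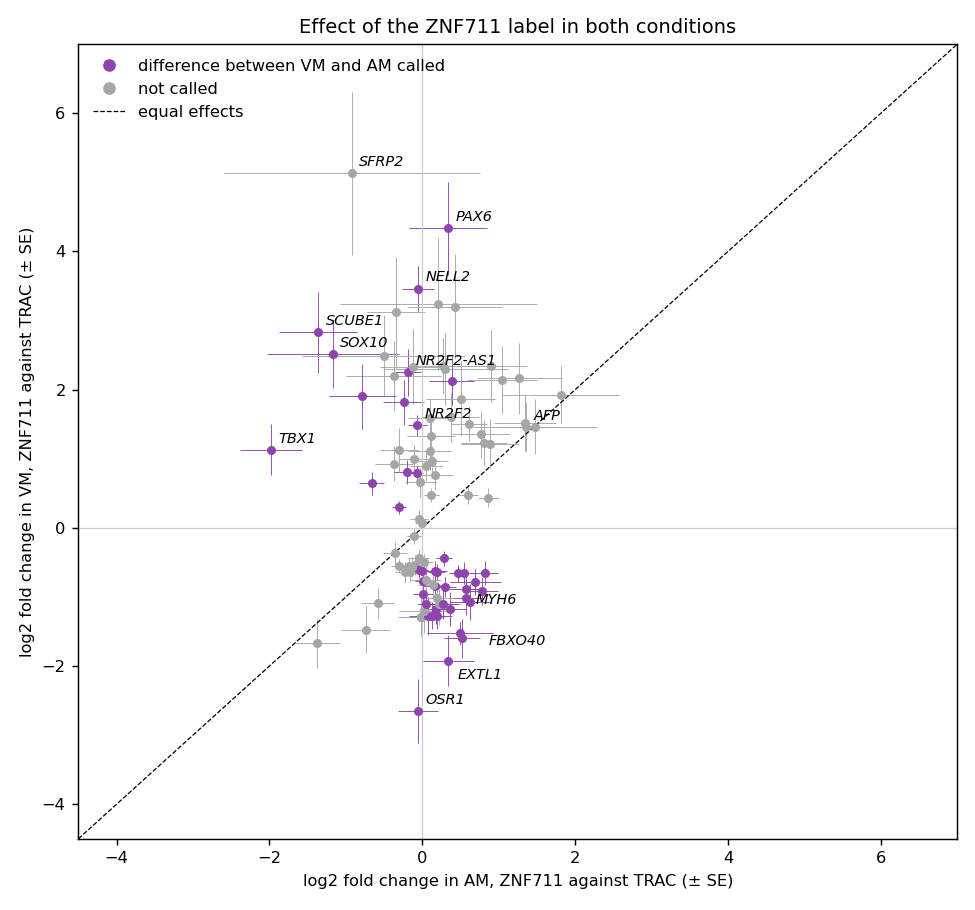
Fitted log2 fold change of ZNF711 against TRAC in VM (y axis) and in AM (x axis), with standard errors, for the tested genes named in the text, leaving out SIX3, which is listed at 0 in all 6 AM libraries. Purple points have a called difference between the conditions and the dashed line marks equal effects; NELL2, NR2F2-AS1, PAX6 and NR2F2 lie near 0 in AM and AFP lies near the line.

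The last comparison set VM ZNF711 against the mean of VM LHX2 and VM ZNF503, which went through the same condition with other targets. It called 3047 genes (17.2% of those tested), 1870 higher (10.6%) and 1177 lower (6.64%), and 80 (0.451%) without the replicate block. It shares the VM ZNF711 libraries with the comparison to TRAC, so the results of both are not independent, and each is given by its own values. NELL2 was higher by 3.13 (SE 0.26, edgeR adjusted p = 3.14e-11), PAX6 by 3.54, NR2F2-AS1 by 2.05 and NR2F2 by 1.59. SFRP2 and TFAP2B had large rises, at 4.69 and 3.53, and CPNE4, ADGRG2 and EGFEM1P had the largest falls among genes with at least 50 counts in each VM LHX2 and VM ZNF503 library, at −1.74, −1.68 and −1.63. Sarcomere genes were called lower in 16 of 20 and hepatic genes higher in 18 of 18. Without the block 0 genes of either list were called. With 1 block shared by AM and VM, 8 sarcomere genes were called lower and 18 hepatic genes higher. ZNF711 itself had a value of −0.26 (SE 0.15, edgeR adjusted p = 0.254).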

How the data were processed

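RNA was measured by bulk sequencing in 24 libraries, 8 groups of 3. The authors deposited gene counts, whole numbers per gene, on GRCh38; STAR is named in the submitters' processing notes, and the counting program, its use of strand and the annotation release are not given in the sources used here. The labels give the molecule as polyA RNA and, elsewhere, name removal of ribosomal RNA with KAPA RiboErase. All 24 columns matched a library.

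Counts were tested with edgeR 4.0.16 (R 4.3.3): filterByExpr by group kept 17724 of 62757 genes, scaling was TMM, and the robust quasi-likelihood fit over all 24 libraries had group means and a replicate block within each condition (12 residual degrees of freedom, biological coefficient of variation 14.3%). P-values were adjusted by Benjamini-Hochberg within each of the 3 comparisons, and for AM ZNF711 against AM TRAC. The script was tested on simulated data.

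The request takes same-numbered libraries as pairs. Deviations from group means correlated by 0.57, 0.32 and 0.54 between same-numbered VM ZNF711 and VM TRAC libraries (11428 genes at log2 CPM 3 or more) and by −0.51 to −0.03 between others. Deviations within a group cancel out, so positive values for same numbers push the others toward negative ones. The negative values are therefore no separate evidence of pairing. Across VM groups same-numbered libraries correlated by 0.26 to 0.79. No libraries of a group agreed within sampling noise (chi-square per degree of freedom 6.08 to 44.2).

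The members and the 26 gene lists (305 genes, 294 tested) were chosen with earlier results of these data known. Named genes were the 12 largest called rises and falls with at least 50 counts in each library of the higher group, no overlap and 1 sign in all pairs. In the other comparisons they were the 3 largest each way, with that count in each VM ZNF711 library for rises and each VM control library for falls. The list genes and the genes of the request were added. A few genes are not reported here. Alternatives were no block, a shared block, other scalings and filters, DESeq2 1.42.0, fewer groups, and left-out libraries or pairs.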

Additional observations from a re-analysis of the deposited data

Results flagged for a closer look

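The effect of ZNF711 targeting differed between the VM and the AM condition for 450 genes by the test of the difference itself (edgeR's quasi-likelihood test, adjusted p below 0.05). Values below are the VM effect minus the AM effect on the log2 scale, for the genes named in the text. Without the replicate block the difference was called for NELL2 alone, and with 1 block shared by AM and VM it was called for 5 genes.

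Among the 4 markers the difference was 3.52 for NELL2, 2.44 for NR2F2-AS1, 3.99 for PAX6 and 1.55 for NR2F2. Sarcomere and chamber genes differed downward: TNNT2 by −1.14, LDB3 by −1.70, MYBPC3 by −1.46, ACTC1 by −1.20, MYH6 by −1.60, MYL4 by −1.13, IRX4 by −2.01 and HEY2 by −1.47. So did the calcium genes RYR2 (−1.37), CACNA1C (−1.47), TRDN (−0.97) and SLC8A1 (−0.79), the transcription factors NKX2-5 (−1.47), TBX20 (−1.69), TBX5 (−0.77), MEF2A (−0.62) and HAND2 (−0.82), and the pacemaker channels HCN4 (−1.15) and CACNA1G (−1.40).

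The second heart field genes went opposite ways, OSR1 by −2.59 and TBX1 by 3.11. For TBX1 the log2 fold change was 1.13 in VM, a call lost in 13 of 18 alternatives, and −1.98 in AM. Of other list genes, MAP2 differed by 2.06, DDR2 by 1.31, CRABP2 by 1.01, JAG1 by 0.61 and FZD7 by 0.87 upward, and LMOD1 by −1.02, BMP5 by −0.57 and PDK1 by −0.73 downward. Among the genes of the naming rule the upward differences were 4.19 for SCUBE1, 3.68 for SOX10, 1.74 for TP63 and 2.69 for SULF1. The downward ones were −2.26 for EXTL1, −2.12 for FBXO40, −1.28 for PTPRE, −1.36 for ROGDI, −1.36 for C10orf71, −1.54 for ITGB1BP2, −2.44 for ADGRG2, −2.23 for TSPAN32, −1.84 for CPNE4 and −1.58 for EGFEM1P.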

How the results depend on the processing

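The replicate block decided the number of calls. Without the block the counts were 3 for VM ZNF711 against VM TRAC, 1 for the difference between VM and AM and 80 against VM LHX2 and VM ZNF503, in place of 1485, 450 and 3047. With 1 block shared by AM and VM they were 402, 5 and 2022. With only the groups compared in the fit the first 2 were 191 and 209. VM libraries alone gave 1124 calls in the first comparison, and other scalings, filters and DESeq2 gave 1358 to 1636. With a library or pair left out the counts lay between 169 and 2487, between 82 and 1234, and between 1061 and 3598. The fewest were left without pair 2 in each comparison. The most came without pair 3 in the first 2 and without VM ZNF711 replicate 3 in the last.

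Single libraries moved the first count as well: it was 618, 279 and 2429 without VM ZNF711 replicates 1, 2 and 3, and 525, 441 and 1829 without VM TRAC replicates 1, 2 and 3. The count of differences between VM and AM was 240, 146 and 1123, and 261, 198 and 695, in the same order. The cause was not tested. Where a condition lost a library, the libraries left are assumed to vary like those of the other groups.

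Of 105 named genes 102 were called, and of these 99 lost their call without the block, 57 with the shared block, 72 without pair 1, 80 without pair 2 and 3 without pair 3. NELL2 was called in all 18 alternatives. Genes that were not called and changed sign were PHF8, with −0.024 without VM ZNF711 replicate 1 and a range of −0.062 (without pair 1) to 0.25, and KDM5C, with −0.016 and a range of −0.021 to 0.12 in those fits. With 3948958 to 7438010 counts a library, genes near 1 CPM rest on a few reads, which limits the folds of PAX6, NR2F1, SIX3, SFRP2 and OSR1.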

Other observations

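Replicate 3 of VM TRAC, VM LHX2 and VM ZNF503 stood apart from replicates 1 and 2 in the pluripotency and epicardial lists as well. The summed pluripotency level was 270 CPM in replicate 3 of VM TRAC, 311 CPM in that of VM LHX2 and 298 CPM in that of VM ZNF503, against 123 to 168 CPM in replicates 1 and 2 of those groups. In VM ZNF711 it was 370, 444 and 353 CPM, above all 9 other VM libraries. The summed epicardial level was 617 to 779 CPM in replicate 3 of the other VM groups, 345 to 412 CPM in their replicates 1 and 2, and 514, 657 and 733 CPM in VM ZNF711.

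Replicate 3 was the highest library for SOX10 and OTX1 in cells with other targets too. SOX10 was at 2.26, 2.13 and 6.004 CPM in VM LHX2 and 2.58, 3.47 and 6.66 CPM in VM ZNF503. OTX1 was at 6.39, 4.04 and 15.8 CPM, and 7.74, 5.72 and 20.4 CPM. NELL2 was at 1.23, 1.03 and 1.04 CPM in VM TRAC. EXTL1 was at 8.84, 18.9 and 8.40 CPM in VM LHX2 and 12.4, 17.0 and 6.02 CPM in VM ZNF503, above 2.97 to 3.34 CPM in VM ZNF711.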
